A study of Homo sapiens with 8 samples.

Results

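The 10 genes described here are Kruppel-like factors (KLFs): KLF2, KLF3, KLF4, KLF6, KLF7, KLF9, KLF10, KLF11, KLF13 and KLF16, chosen by name among the 58219 genes of each deposited table. All 10 were among the 13129 protein-coding genes that passed the filter on low counts. RNA was sequenced from 2 established multiple myeloma lines that carry the t(4;14) translocation, H929 (NCI-H929 in the labels) and KMS11, in 8 libraries. The 4 groups were H929 in ethanol, H929 in fluvastatin, KMS11 in ethanol and KMS11 in fluvastatin, with 2 biological replicates each. All cells grew in RPMI medium with fetal bovine serum, fluvastatin was given at 2 µM for 24 h, and ethanol was the solvent control for the same 24 h. Fluvastatin is a statin, an inhibitor of HMG-CoA reductase, the rate-limiting enzyme of the mevalonate pathway that makes cholesterol and the isoprenoids attached to small GTPases. Both lines carry the translocation, and a difference between them cannot be assigned to any single property of either line.

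KLFs are transcription factors that bind CACCC and GC-rich elements of promoters through C2H2 zinc fingers at their C terminus, and they share this binding domain with the SP proteins. Their N termini differ and sort the family by partner: KLF3, KLF8 and KLF12 recruit the CtBP corepressors, KLF9, KLF10, KLF11, KLF13 and KLF16 recruit Sin3A, and KLF2, KLF4, KLF5, KLF6 and KLF7 carry activation domains that contact acetyltransferases such as p300. KLF2 is known as a shear-stress gene of endothelium that statins raise and that the kinase ERK5 controls through MEF2 factors, and in myeloma it has been placed with KDM3A and IRF4 in a survival circuit.

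Library totals ran from 26702515 to 41910446 expected counts, and 85.2% to 91.4% of these fell in protein-coding genes. Of 8 plasma cell markers, 7 exceeded 1 TPM in every library. The exception was CD38, at 0.01 to 26.9 TPM. Both genes deregulated by the translocation were detected, FGFR3 at 5.33 to 95.2 TPM and NSD2 at 83.6 to 141 TPM. Markers of B cells before the plasma cell stage summed to at most 0.09 TPM and myeloid markers to at most 0.17 TPM, with CD14 and CSF1R at 0 counts throughout. The epithelial markers summed to 30.4 to 36.2 TPM in KMS11, with EPCAM at up to 35.9 TPM, and to at most 0.04 TPM in H929. The endothelial markers summed to 5.87 to 7.99 TPM in H929 and 0.92 to 1.56 TPM in KMS11, with PECAM1 at 0.87 TPM or more in every library and CDH5 at 0 counts in all. With fluvastatin, the plasma cell markers summed to 1680 to 1730 TPM against 2000 to 2140 in ethanol in H929 and to 644 to 731 against 893 to 921 in KMS11. The T cell markers summed to 3.07 to 3.54 TPM against 1.51 to 1.6 in H929, nearly all from CD3E, and to at most 0.46 TPM in KMS11. The part of these markers in the KLF results was not tested. In bulk RNA, fewer cells carrying a transcript cannot be told apart from less of it per cell.

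Promoter sequence was taken for the members from the RefSeq table of GRCh38.p14, which matched 8 of the 10 genes, all but KLF3 and KLF10, with 12 windows of 300 bases, 250 before and 50 after each start. GGGCGG was in 8 of the 12 windows, from 7 genes, and in 45% of all 35116 windows of that length. The MEF2 consensus was in 1 of the 12, that of KLF2, and in 2.99% of all windows, and the CArG box of serum response factor in 1 of KLF7 and in 1.29% of all. CCAAT occurred in 5 of the 12 windows (34.6% of all), TGACG in 4 (24.6%), CACCC in 5 (59.9%) and TGACTCA in 0 (4.95%). Both strands were searched. GGGCGG and CACCC were counted independently, and a match is only a description of the letters in the window.

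Stretches upstream of the start are printed for 4 members: KLF2, because its window holds the only MEF2 match, KLF6 and KLF9, which rose in both lines, and KLF13, the most abundant member. They are given 5′ to 3′ on the gene's own strand. The KLF2 stretch is chr19:16324576-16324825 on the plus strand, KLF6 is chr10:3785282-3785459 on the minus strand, KLF9 is chr9:70414658-70414907 on the minus strand and KLF13 is chr15:31326585-31326834 on the plus strand. Capitals mark the MEF2 match in KLF2, which lies 120 to 111 bases before the start, CCAAT or its reverse complement in KLF6, KLF9 and KLF13, and TGACG in KLF13.
KLF2: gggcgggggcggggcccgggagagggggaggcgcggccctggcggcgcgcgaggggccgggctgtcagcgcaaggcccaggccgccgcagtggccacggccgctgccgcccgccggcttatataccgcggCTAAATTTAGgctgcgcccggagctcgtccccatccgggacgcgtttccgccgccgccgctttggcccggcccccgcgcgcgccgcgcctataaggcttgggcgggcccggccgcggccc
KLF6: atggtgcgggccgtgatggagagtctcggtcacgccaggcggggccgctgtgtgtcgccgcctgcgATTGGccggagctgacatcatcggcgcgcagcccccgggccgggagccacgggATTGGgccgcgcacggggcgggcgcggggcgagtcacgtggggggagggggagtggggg
KLF9: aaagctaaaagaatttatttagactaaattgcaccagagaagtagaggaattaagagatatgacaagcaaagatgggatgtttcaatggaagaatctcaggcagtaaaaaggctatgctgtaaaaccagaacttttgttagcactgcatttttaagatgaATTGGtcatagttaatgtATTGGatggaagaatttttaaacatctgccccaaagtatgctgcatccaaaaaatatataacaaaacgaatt
KLF13: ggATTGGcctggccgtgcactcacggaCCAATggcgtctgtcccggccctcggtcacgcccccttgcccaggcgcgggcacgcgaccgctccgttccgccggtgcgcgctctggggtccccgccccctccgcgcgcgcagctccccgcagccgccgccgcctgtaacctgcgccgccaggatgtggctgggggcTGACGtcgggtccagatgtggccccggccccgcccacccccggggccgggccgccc
The inverted CCAAT boxes of KLF9 end 86 and 68 bases before its start. Those of KLF6 end 180 and 127 bases before its RefSeq start, which lies inside the annotated gene. The KLF6 stretch was cut to the 178 bases outside the gene, so these distances are longer than those to its printed end. The KLF13 stretch holds a CCAAT in each orientation.

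Compared per length, as TPM, the deposited value scaled by transcript length and library, KLF13 was the most abundant member in all 4 groups, at 27 ± 2.28 TPM in H929 in ethanol (SD, n = 2 here and below) and 58.4 ± 6.26 TPM in KMS11 in ethanol. KLF10 followed in ethanol, at 9.42 ± 0.24 TPM in H929 and 17.8 ± 1.62 TPM in KMS11, ahead of KLF6 at 4.21 ± 0.976 and 15.1 ± 0.467 TPM. In both lines KLF6 overtook KLF10 in fluvastatin, at 20.6 ± 1.22 against 9.15 ± 0.0636 TPM in H929 and 34.4 ± 3.51 against 18.6 ± 0.233 TPM in KMS11, in both libraries of each group.

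The bottom of the order differed between the lines. In H929 the scarcest member was KLF4, at 0.145 ± 0.00707 TPM in ethanol and 0.16 ± 0.0283 TPM in fluvastatin. In KMS11 it was KLF2, at 0.125 ± 0.00707 TPM in ethanol and 0.765 ± 0.0495 TPM in fluvastatin, whereas in H929 in fluvastatin KLF2 was behind only KLF13 and KLF6 at 13.4 ± 1.54 TPM. Neighbours whose ranges over the 2 libraries overlapped were KLF16 and KLF11 in H929 in ethanol, KLF7 and KLF11 in H929 in fluvastatin, KLF4, KLF7 and KLF16 in KMS11 in ethanol, and KLF11 and KLF3 in KMS11 in fluvastatin.

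The summed level of the 10 members was 47.9 ± 0.163 TPM in H929 in ethanol and 101 ± 0.792 TPM in H929 in fluvastatin, with no overlap. In KMS11 the sum was 111 ± 10.0 TPM in ethanol and 132 ± 6.78 TPM in fluvastatin, and the lowest fluvastatin library (127 TPM) was above the highest ethanol library (118 TPM). KLF13 supplied 56.4% ± 4.57 of the sum in H929 in ethanol and 38.1% ± 2.87 in fluvastatin, and 52.8% ± 0.868 and 37.0% ± 4.88 in KMS11. KLF6 supplied 8.8% ± 2.07 in ethanol and 20.5% ± 1.37 in fluvastatin in H929, and 13.7% ± 1.67 and 26.2% ± 4.01 in KMS11. KLF2 made up 13.3% ± 1.63 of the sum in H929 in fluvastatin and 0.582% ± 0.0675 in KMS11 in fluvastatin. These shares are descriptions and were not tested.

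**Figure D1:**
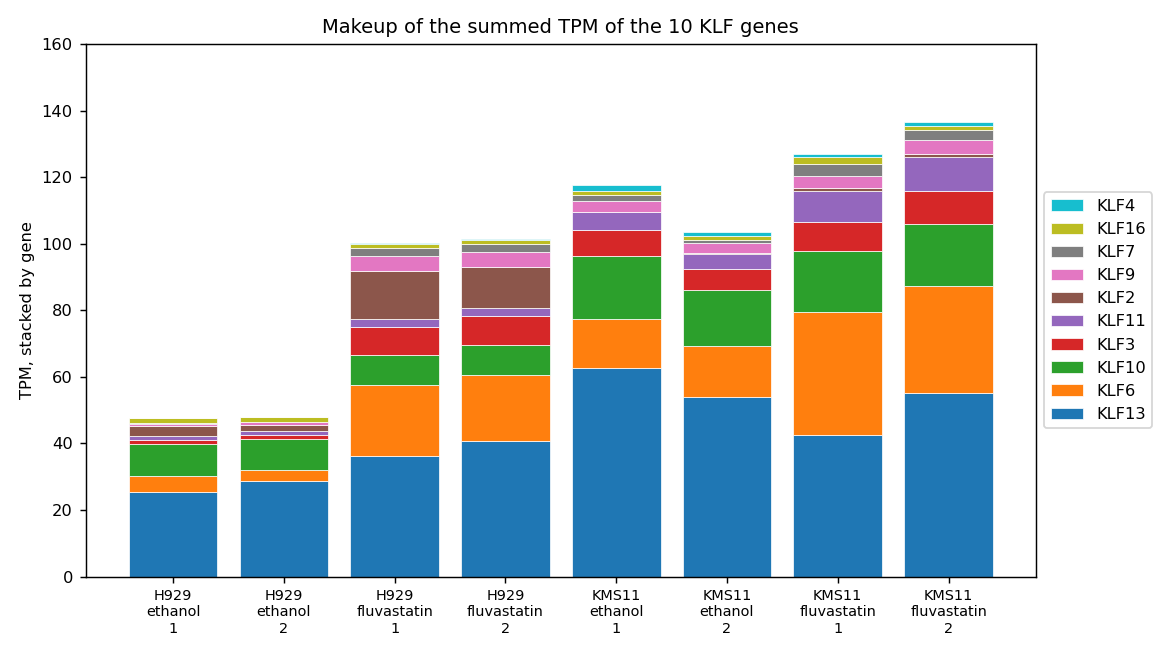
Summed TPM of the 10 KLF genes in each of the 8 libraries, on an axis from 0, with 1 colour per gene stacked by mean abundance. The H929 bars are near 48 TPM in ethanol and near 101 TPM in fluvastatin, and the KLF2 segment is visible mainly in H929 in fluvastatin.

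Fluvastatin was first compared with ethanol across both lines, with a term for the line. Of the 10 members, 6 rose (KLF2, KLF3, KLF6, KLF7, KLF9 and KLF11) and 0 fell at an adjusted p under 0.05. Of all genes tested, 10.4% were called in either direction, 6.5% as higher and 3.93% as lower. The median log2 fold change was 1.25 over the members and 0.03 over all genes tested. Without any single one of the 4 H929 libraries the count was 3 (KLF2, KLF6 and KLF11), with adjusted p of 0.051 to 0.18 for KLF3, KLF7 and KLF9, and without the second KMS11 ethanol library it was 5, with KLF3 at an adjusted p of 0.061. Calls over all genes also fell without any of these H929 libraries. A fit with no term for the line called 0 members and only 4 of all genes.

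Within H929, 7 members rose (those 6 and KLF13) and 0 fell, where 42% of all genes were called and 22.7% as higher. The median was 1.68 over the members and 0.02 over all genes. Within KMS11, 6 members rose, KLF2, KLF3, KLF6, KLF7, KLF9 and KLF11, and 0 fell, where 3.12% of all genes were called and 2.58% as higher. The median there was 0.55 over the members and 0.00 over all genes. DESeq2 called 6 members across the lines, 7 within H929 and 6 within KMS11, all higher. Over all genes it called 2556, 5136 and 926 in the same comparisons. These comparisons share libraries and are not separate evidence. The 2 libraries of KMS11 in fluvastatin differed from each other more than those of any other group.

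By CPM, read counts scaled to a common library size with TMM factors, of single libraries, 7 members had both fluvastatin libraries above both ethanol libraries in H929, a pattern of 37.5% of all genes, and 7 in KMS11, a pattern of 26.9%. In H929 the 7 were the members called. In KMS11 they were the 6 called and KLF10. The only member with both fluvastatin libraries lower was KLF10 in H929 and KLF4 in KMS11, where 33.5% and 26.5% of all genes were so placed.

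**Figure D2:**
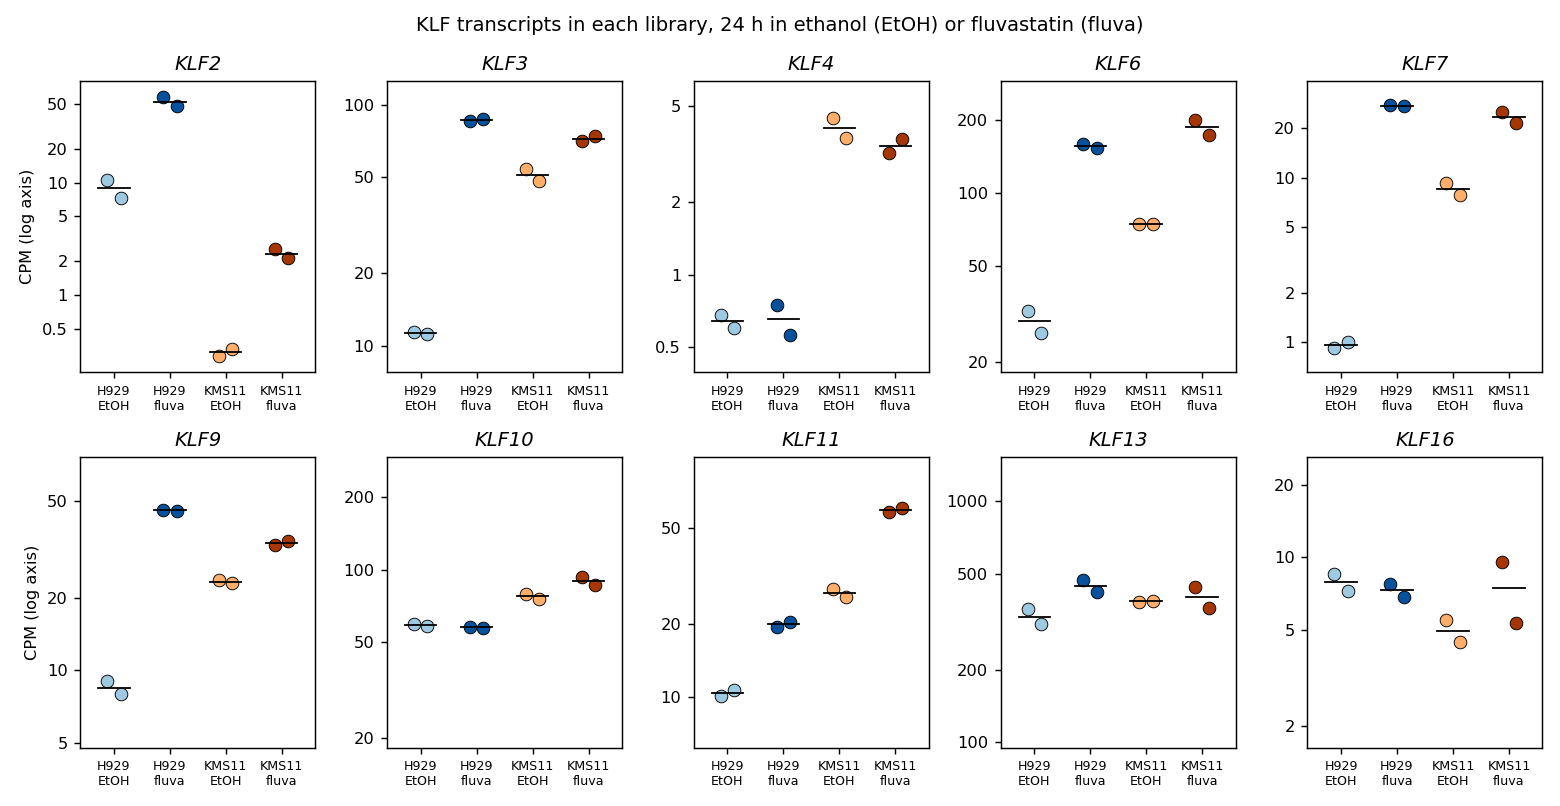
CPM of each KLF gene (log axis, a separate scale per gene) in the 8 libraries. Points are libraries, lines are means of 2, EtOH is ethanol and fluva is fluvastatin. KLF3, KLF7 and KLF9 stood low in H929 in ethanol and much closer together in the other 3 groups.

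KLF2 (chr19:16324826-16328685, plus strand), an activator with roles in lymphocyte quiescence and homing as well as in endothelium, had 10.5 and 7.36 CPM in H929 in ethanol and 57.6 and 48.0 CPM in fluvastatin. In KMS11 it had 0.287 and 0.328 CPM in ethanol and 2.56 and 2.11 CPM in fluvastatin, from 11 and 12 counts against 71 and 81. The fluvastatin libraries were higher in each line without overlap, and every H929 library was above every KMS11 library. KLF2 rose 5.88-fold in H929 (log2 2.56 ± 0.19 SE, adjusted p = 1.3e-05) and 7.47-fold in KMS11 (log2 2.90 ± 0.31 SE, adjusted p = 0.00089). On TPM, the change in KMS11 was 1.94 with a pseudocount of 0.1 (adjusted p = 0.0022) and 0.65, no longer a call, with a pseudocount of 1 (adjusted p = 0.072). The responses differed by 0.34 ± 0.37 SE on the log2 scale, KMS11 minus H929 (adjusted p = 0.54), a difference that turned to −0.32 when trends with GC content were removed and to −1.47 (adjusted p = 0.0031) on log2(TPM + 1), a scale on which 1 TPM exceeds every KMS11 value of this gene.

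KLF6 (chr10:3775996-3785281, minus strand), a broadly expressed activator known as an immediate-early gene, had 32.6 and 26.2 CPM in H929 in ethanol against 159 and 153 CPM in fluvastatin. Its KMS11 values were 74.5 and 74.3 CPM in ethanol against 201 and 174 CPM in fluvastatin. It was higher in all 4 fluvastatin libraries than in any ethanol library. The rise was 5.31-fold in H929 (log2 2.41 ± 0.12 SE, adjusted p = 2e-06) and 2.52-fold in KMS11 (log2 1.33 ± 0.12 SE, adjusted p = 0.00031).

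KLF7 (chr2:207074137-207173856, minus strand), an activator known from neurons and from blood progenitors, had 0.919 and 1 CPM in H929 in ethanol against 27.7 and 27.3 CPM in fluvastatin, from 27 and 25 counts against 630 and 677. In KMS11 it had 9.24 and 7.90 CPM in ethanol against 25.3 and 21.6 CPM in fluvastatin. H929 in ethanol stood far below the other 3 groups. The rise was 28.6-fold in H929 (log2 4.84 ± 0.19 SE, adjusted p = 1.1e-06) and 2.73-fold in KMS11 (log2 1.45 ± 0.14 SE, adjusted p = 0.00063).

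The KLF7 fold of H929 depended on the unit and, on TPM, on the pseudocount. The effective length that RSEM assigned to KLF7, a mean over the isoforms it read, was 2550 and 2290 bases in H929 in ethanol, 5150 and 4930 bases in H929 in fluvastatin and 4080 to 4830 bases in the KMS11 libraries. Per length, KLF7 was at 0.17 and 0.2 TPM in H929 in ethanol and at 2.48 and 2.61 TPM in fluvastatin. The log2 change was 3.22 (adjusted p = 1.1e-05) on log2(TPM + 0.1) with limma and 1.58 (adjusted p = 5.2e-05) on log2(TPM + 1), still a rise in either unit. A pseudocount of 1 exceeds both ethanol values and 0.1 is a large part of them, which shrinks these changes. With 27 and 25 counts behind the ethanol values, the isoforms that were read there were not tested.

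KLF4 (chr9:107484852-107490482, minus strand), the activator of the same subgroup that is best known from pluripotency and epithelia, had 0.681 and 0.600 CPM in H929 in ethanol and 0.747 and 0.564 CPM in fluvastatin, from 14 to 20 counts. In KMS11 it had 4.44 and 3.69 CPM in ethanol and 3.18 and 3.63 CPM in fluvastatin. The groups overlapped in H929 and did not in KMS11. Neither difference passed the test, at a log2 change of 0.02 ± 0.34 SE in H929 (adjusted p = 0.98) and −0.25 ± 0.22 SE in KMS11 (adjusted p = 0.53). KLF4 had the most negative change across the lines of the 10, −0.15 ± 0.20 SE (adjusted p = 0.64), in the same subgroup as KLF7 with the most positive, 2.90 ± 0.62 SE (adjusted p = 0.027).

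KLF3 (chr4:38664197-38701517, plus strand), the CtBP-recruiting repressor known from B cell and erythroid development, had 11.5 and 11.2 CPM in H929 in ethanol against 85.3 and 87.4 CPM in fluvastatin. KMS11 had 54.0 and 48.5 CPM against 70.7 and 73.9 CPM. The groups did not overlap in either line. KLF3 rose 7.62-fold in H929 (log2 2.93 ± 0.11 SE, adjusted p = 1.1e-06) and 1.41-fold in KMS11 (log2 0.50 ± 0.09 SE, adjusted p = 0.024). The call in KMS11 was lost in 4 of 19 alternatives. These were limma on log2(TPM + 1) (adjusted p = 0.22) and on log2(TPM + 0.1) (0.24), and leaving out the first or the second KMS11 ethanol library (log2 0.55 or 0.39). The antisense gene KLF3-AS1 had at most 19 counts in a library. The strand setting of the counting is not given in the sources used here, and the part of antisense reads in the KLF3 counts was not tested.

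The members that recruit Sin3A split into those that rose and those that did not. KLF9 (chr9:70384604-70414657, minus strand), a target of glucocorticoid and thyroid hormone receptors, had 9.02 and 7.96 CPM in H929 in ethanol against 46.0 and 45.8 CPM in fluvastatin. KMS11 had 23.7 and 22.9 CPM against 33.1 and 34.2 CPM. Both lines were without overlap. KLF9 rose 5.40-fold in H929 (log2 2.43 ± 0.12 SE, adjusted p = 1.8e-06) and 1.44-fold in KMS11 (log2 0.53 ± 0.11 SE, adjusted p = 0.036). The KMS11 call was lost in 8 of 19 alternatives. Among them were edgeR on the KMS11 libraries alone (adjusted p = 0.053) and limma on log2(TPM + 1) (0.19) and log2(TPM + 0.1) (0.25). The others left out either KMS11 ethanol library, the first KMS11 fluvastatin library or either H929 fluvastatin library, with log2 changes of 0.48 to 0.55.

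KLF11 (chr2:10042849-10054836, plus strand), a repressor induced by TGF-beta that is also called TIEG2, had 10.1 and 10.7 CPM in H929 in ethanol against 19.6 and 20.5 CPM in fluvastatin. The KMS11 values were 28.1 and 26 CPM against 58.5 and 60.5 CPM. The groups were without overlap in each line. KLF11 rose 1.92-fold in H929 (log2 0.94 ± 0.12 SE, adjusted p = 0.00019) and 2.20-fold in KMS11 (log2 1.14 ± 0.11 SE, adjusted p = 0.00048), with a difference of 0.20 ± 0.16 SE (adjusted p = 0.4).

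KLF10 (chr8:102648784-102655725, minus strand), its closest relative, also called TIEG1 and also induced by TGF-beta, had 59.8 and 58.5 CPM in H929 in ethanol and 57.7 and 57.5 CPM in fluvastatin. In KMS11 it had 79.5 and 75.4 CPM in ethanol and 93.3 and 86.0 CPM in fluvastatin. The libraries did not overlap in either line, in opposite directions. Neither change passed the test, at −0.04 ± 0.09 SE in H929 (adjusted p = 0.77) and 0.21 ± 0.09 SE in KMS11 (adjusted p = 0.2).

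KLF13 (chr15:31326835-31435665, plus strand), known as a late activator of CCL5 in T cells, had 356 and 308 CPM in H929 in ethanol against 470 and 420 CPM in fluvastatin. KMS11 had 381 and 386 CPM against 438 and 359 CPM. The groups did not overlap in H929 and did in KMS11. KLF13 rose 1.34-fold in H929 (log2 0.42 ± 0.12 SE, adjusted p = 0.017), a call lost without the second ethanol (log2 0.32) or the first fluvastatin library (0.34). In KMS11 its change was 0.06 ± 0.12 SE (adjusted p = 0.82), with the sign reversed on TPM (−0.26) and with GC trends removed (−0.18).

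KLF16 (chr19:1852399-1863579, minus strand), a repressor known from dopaminergic brain regions and metabolic organs, had 8.54 and 7.24 CPM in H929 in ethanol and 7.77 and 6.85 CPM in fluvastatin. In KMS11 it had 5.48 and 4.46 CPM in ethanol and 9.53 and 5.35 CPM in fluvastatin, with the 2 fluvastatin libraries far apart. The groups overlapped in both lines. The log2 changes were −0.11 ± 0.26 SE in H929 (adjusted p = 0.77) and 0.57 ± 0.26 SE in KMS11 (adjusted p = 0.24), and both signs turned when GC trends were removed (0.24 and −0.33). Without the second KMS11 fluvastatin library the change in KMS11 was 0.89 and passed the test. The transcripts of KLF16 are 70.2% G and C, more than in 99.9% of the genes tested, whose median was 48.4%.

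**Figure D3:**
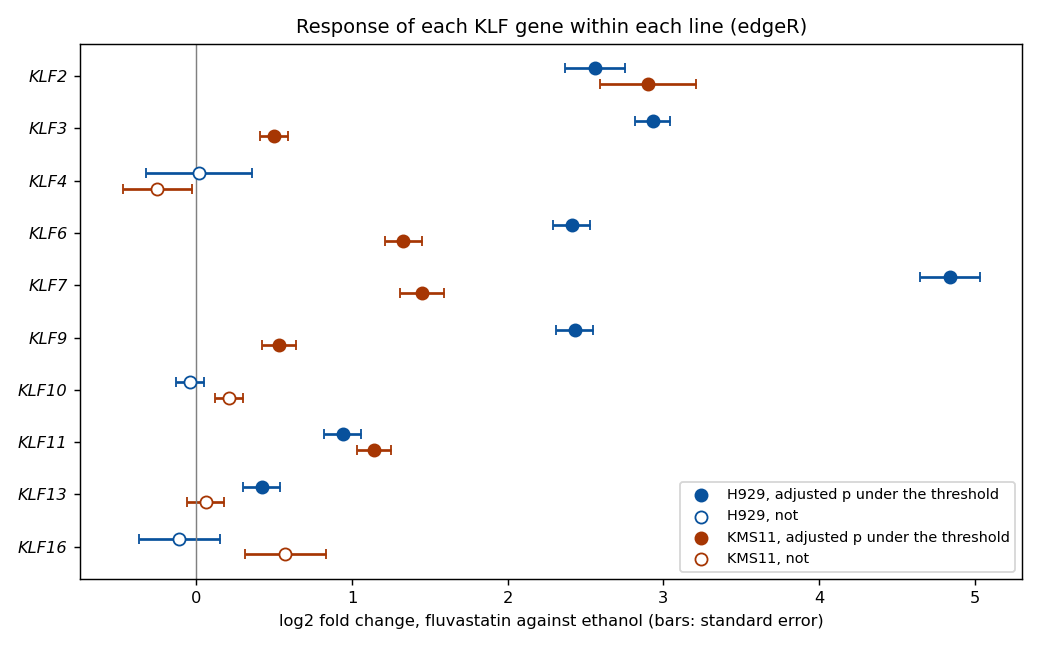
Log2 fold change of each KLF gene, fluvastatin against ethanol, in H929 (blue) and KMS11 (brown), with standard errors from edgeR. Filled points have an adjusted p under 0.05. The points of KLF3, KLF6, KLF7 and KLF9 are farther right in H929, while those of KLF2 and KLF11 are close together.

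The responses themselves differed between the lines for 4 members, KLF3, KLF6, KLF7 and KLF9, all smaller in KMS11, where 23.2% of all genes were called and 11.5% as smaller in KMS11. On the log2 scale, KMS11 minus H929, KLF7 differed by −3.39 ± 0.24 SE (adjusted p = 7.8e-05), KLF3 by −2.44 ± 0.14 SE (5.2e-05), KLF9 by −1.90 ± 0.16 SE (0.00014) and KLF6 by −1.08 ± 0.17 SE (0.0022). The 4 had this sign and an adjusted p under 0.05 in every alternative run. The KLF7 difference was −0.70 (adjusted p = 0.035) on log2(TPM + 1), a scale on which 1 TPM exceeds both H929 ethanol values of this gene. KLF13 differed by −0.36 ± 0.17 SE (adjusted p = 0.14), by −0.70 (adjusted p = 5.9e-05) with GC trends removed, by −0.75 (adjusted p = 0.039) on log2(TPM + 1) and by −0.50 without the first KMS11 fluvastatin library, and was called in all 3. KLF16 differed by 0.68 ± 0.37 SE (adjusted p = 0.21), and by 1.04, a call, without the second KMS11 fluvastatin library. The median difference was −0.32 over the members and 0.00 over all genes.

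In ethanol, 9 members differed between the lines, 7 higher and 2 lower in KMS11, where 72% of all genes were called, 35.6% as higher and 36.4% as lower. KLF7 was 8.92-fold higher in KMS11 (log2 3.16 ± 0.19 SE, adjusted p = 3.4e-07), KLF4 6.29-fold (2.65 ± 0.27 SE, 1.3e-05) and KLF3 4.53-fold (2.18 ± 0.10 SE, 6.9e-08). KLF9, KLF11, KLF6 and KLF10 were higher by 1.46 ± 0.12, 1.38 ± 0.11, 1.34 ± 0.12 and 0.39 ± 0.09 SE on the log2 scale, with adjusted p of 2.6e-06, 2.9e-06, 5.2e-06 and 0.0029. KLF2 was 28.8-fold lower in KMS11 (log2 −4.85 ± 0.28 SE, adjusted p = 2.4e-07). With so many genes called between the lines, a call here says little about the family.

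The KLF16 ratio in ethanol, −0.67 ± 0.26 SE (adjusted p = 0.042), turned to 1.12 (adjusted p = 6.7e-05) with GC trends removed. Its call was also lost without any single ethanol library, with adjusted p of 0.054 to 0.2. KLF13 was at 0.21 ± 0.12 SE (adjusted p = 0.14) by counts and at 1.08 (adjusted p = 0.00012) on log2(TPM + 1). Its effective length was 6610 and 5000 bases in H929 in ethanol and 4230 and 4610 bases in KMS11 in ethanol. KLF10 was at 0.10 (adjusted p = 0.26) with GC trends removed.

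The lines were also compared in fluvastatin, a comparison added after the values were seen. There 6 members were called, 3 higher and 3 lower in KMS11, where 72.7% of all genes were called, 37.4% as higher and 35.2% as lower. KLF7, 8.92-fold apart in ethanol, had a log2 ratio of −0.23 ± 0.14 SE (adjusted p = 0.17), which was 0.26 on log2(TPM + 1). KLF6 was at 0.26 ± 0.12 SE (adjusted p = 0.061) and KLF9 at −0.45 ± 0.11 SE (adjusted p = 0.0044). KLF3 was at −0.26 ± 0.09 SE (adjusted p = 0.032), with the sign reversed on log2(TPM + 1), at 0.10 (adjusted p = 0.51). The KLF3 call was lost in 9 of 17 alternatives and a KLF6 call was gained in 8 of 17.

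KLF2 was 22.7-fold lower in KMS11 in fluvastatin (log2 −4.50 ± 0.22 SE, adjusted p = 6.2e-08). KLF4 was 5.20-fold higher (2.38 ± 0.28 SE, 3.2e-05) and KLF11 2.97-fold higher (1.57 ± 0.11 SE, 8e-07). KLF10 was 1.56-fold higher (0.64 ± 0.09 SE, 0.00011). KLF16 and KLF13 were at 0.02 ± 0.26 SE (adjusted p = 0.96) and −0.16 ± 0.12 SE (adjusted p = 0.25), and the sign of both turned under other settings.

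**Figure D4:**
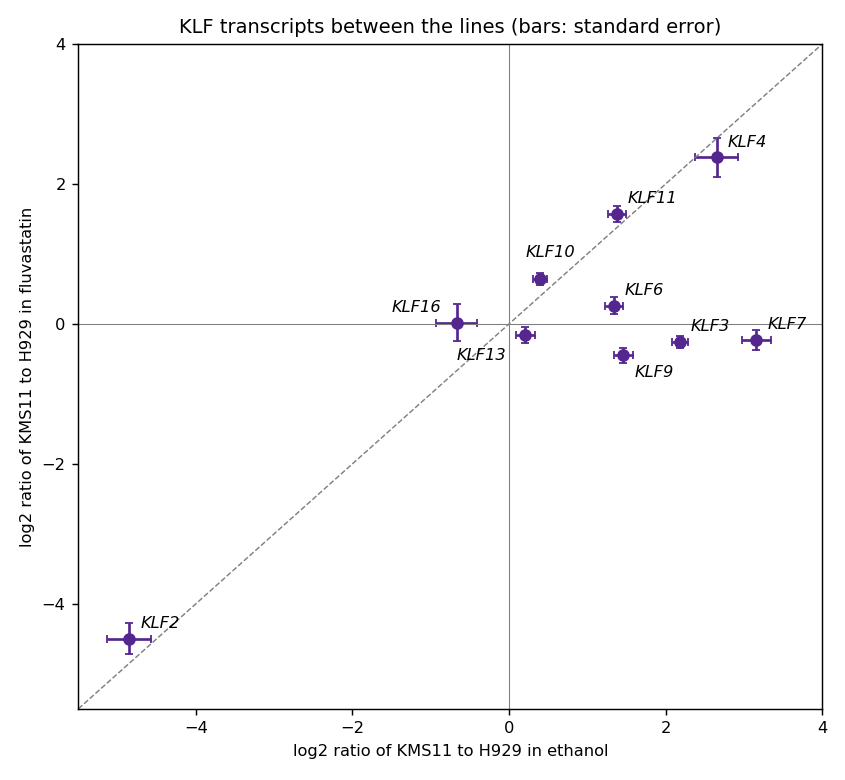
Log2 ratio of KMS11 to H929 for each KLF gene in ethanol (horizontal) and in fluvastatin (vertical), with standard errors, and a dashed line where the ratios are equal. KLF2, KLF4, KLF10 and KLF11 are near the line, and KLF3, KLF6, KLF7 and KLF9 lie to its right, at ratios of −0.45 to 0.26 in fluvastatin.

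Over the 8 libraries, the log2 CPM of KLF3, KLF7 and KLF9 had a Pearson correlation of 0.99 with each other, and KLF6 of 0.95 to 0.98 with these 3. KLF2 had −0.88 with KLF4, the members ordered oppositely by line. These points share 2 lines and 1 treatment, so the values describe the 4 groups more than any spread within them. The genes whose CPM was most like that of KLF7, among 11062 candidates, were CAST (0.994), SUN1 (0.993) and TMEM140 (0.992). CAST, the gene of calpastatin, had 83.2 and 84.7 CPM in H929 in ethanol, 231 and 261 in H929 in fluvastatin, 165 and 164 in KMS11 in ethanol and 224 and 238 in KMS11 in fluvastatin. The genes most like KLF4 were NDUFAF1 (0.998), GULP1 (0.998) and PMS2 (0.997), the last a gene with near-identical pseudogene copies, all higher in every KMS11 library than in any H929 library.

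Of the other 8 KLF genes of the annotation, 4 were tested. The CtBP-recruiting KLF8 and KLF12 rose across the lines, by 1.39 ± 0.25 SE (adjusted p = 0.017) and 1.08 ± 0.18 SE (0.012) on the log2 scale. KLF8 had 3.71 and 3.56 CPM in H929 in ethanol against 14.4 and 14.0 CPM in fluvastatin, and 1.64 and 1.61 against 2.85 and 2.64 CPM in KMS11, without overlap in either line. KLF12 had 20.7 and 18.2 CPM against 57.5 and 54.9 CPM in H929 and 25.2 and 23.4 CPM against 37.6 and 37.9 CPM in KMS11, again without overlap.

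Their responses were smaller in KMS11, by −1.21 ± 0.25 SE for KLF8 (adjusted p = 0.009) and −0.89 ± 0.16 SE for KLF12 (adjusted p = 0.004), a call made for 11.5% of all genes. KLF15, a metabolic KLF of liver and muscle, fell by 1.14 in H929 (adjusted p = 0.026) and by 1.52 in KMS11 (adjusted p = 0.049) on the log2 scale, from 31 to 56 counts in ethanol to 16 to 18 in fluvastatin. KLF5 was at 0.57 ± 0.17 SE across the lines (adjusted p = 0.063). Within H929, KLF5, KLF8 and KLF12 were all called as higher, where 22.7% of all genes were. Within KMS11 only 1 of these 3 was, where 2.58% of all genes were. Among the genes not tested, KLF1, the erythroid KLF, had 3 to 12 counts, KLF14 had at most 3, and KLF17 and KLF18 had 0 in every library. The 8 libraries leave KLF17 and KLF18 undetected at this depth, which does not show absence.

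The SP proteins, which share the zinc fingers, gave 0 calls across the lines among 6 tested genes of 9, with a median log2 change of 0.08. Of all genes tested, 10.4% were called there, so 0 of 6 says little about the SP family. SP2 was at 0.55 ± 0.21 SE (adjusted p = 0.11) and SP4 at 0.21 ± 0.15 SE (adjusted p = 0.36). SP4 was the only one called within a line, at 0.57 ± 0.11 SE in H929 (adjusted p = 0.0021). Within H929 and KMS11, 42% and 3.12% of all genes were called. The ubiquitous SP1 was at −0.06 ± 0.08 SE (adjusted p = 0.63). No count over this or the next lists was tested as a set.

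The route from MEK5 through ERK5 to MEF2, known upstream of KLF2 and KLF4 in endothelium, had 8 tested genes, of which 2 rose and 0 fell across the lines (median 0.36), against 6.5% and 3.93% of all genes. MAPK7, the gene of ERK5, rose by 0.65 ± 0.16 SE (adjusted p = 0.039) and MEF2A by 1.01 ± 0.23 SE (adjusted p = 0.03). Within H929, 5 rose and 0 fell, where 22.7% of all genes rose and 19.3% fell, with MEF2A at 1.60 ± 0.12 SE (adjusted p = 1.4e-05). Within KMS11, 0 rose and 1 fell, against 2.58% and 0.533% of all genes. That gene was MEF2C, named after its values were seen, at −0.48 ± 0.09 SE in KMS11 (adjusted p = 0.024) and 0.96 ± 0.09 SE in H929 (adjusted p = 3.7e-05).

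Among 13 corepressors and coactivators of KLFs, 0 were called across the lines and 0 in KMS11, where 10.4% and 3.12% of all genes were. In H929 3 rose and 4 fell, where 42% of all genes were called. SAP30 and HDAC1, parts of the Sin3 complex, fell in H929 by 0.55 (adjusted p = 0.0049) and 0.48 (adjusted p = 0.003) on the log2 scale. KAT2B, an acetyltransferase, rose there by 1.25 ± 0.11 SE (adjusted p = 3.1e-05), and EP300, the gene of p300, was at 0.28 ± 0.13 SE (adjusted p = 0.1). Of 7 genes for ubiquitin ligases that act on KLF proteins, 0 were called across the lines or in KMS11 (10.4% and 3.12% of all genes). In H929 4 rose (22.7% of all genes), among them FBXO32 by 2.73 ± 0.19 SE (adjusted p = 7.8e-06), SIAH1 by 1.21 ± 0.14 SE (adjusted p = 0.00014) and FBXW7 by 0.49 ± 0.09 SE (adjusted p = 0.0014). The 3 had responses smaller in KMS11, by −2.77 ± 0.26, −1.12 ± 0.20 and −0.66 ± 0.12 SE (adjusted p = 0.00023, 0.004 and 0.0052).

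Known KLF targets and the KDM3A-KLF2-IRF4 circuit had 12 tested genes of 16. Across the lines 2 rose and 0 fell (median 0.36), the cell cycle inhibitors CDKN1A, at 1.27 ± 0.32 SE (adjusted p = 0.04), and CDKN1C, at 1.23 ± 0.25 SE (adjusted p = 0.025). CDKN1A rose by 0.51 ± 0.15 SE in H929 (adjusted p = 0.018) and by 2.22 ± 0.19 SE in KMS11 (adjusted p = 0.00027), the larger response being in KMS11 (difference 1.71 ± 0.24 SE, adjusted p = 0.0014). The proapoptotic PMAIP1 was at 0.85 ± 0.26 SE across the lines (adjusted p = 0.063) and the integrin gene ITGB7 at 0.33 ± 0.14 SE (adjusted p = 0.14). Within H929, 7 of the 12 rose and 1 fell (22.7% and 19.3% of all genes), and within KMS11 1 rose and 0 fell (2.58% and 0.533%).

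The partners of KLF2 in that circuit, named after their values were seen, passed the test in 1 of 4 comparisons within a line. IRF4 was at −0.02 ± 0.09 SE in H929 (adjusted p = 0.87) and −0.19 ± 0.09 SE in KMS11 (adjusted p = 0.26). KDM3A, the demethylase placed upstream of KLF2, rose by 0.38 ± 0.11 SE in H929 (adjusted p = 0.017) and was at 0.07 ± 0.11 SE in KMS11 (adjusted p = 0.73). IRF4 was lower in KMS11 than in H929 in ethanol, by −1.08 ± 0.09 SE (adjusted p = 4.3e-06), as were 36.4% of all genes. KLF2 was at −4.85 there, and a link between these genes was not tested.

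KLF9 is a glucocorticoid receptor target, and 5 of 6 listed genes of that group were tested. TSC22D3, the gene of the glucocorticoid-induced leucine zipper GILZ, rose by 4.02 ± 0.19 SE in H929 (adjusted p = 1.6e-06) and 2.24 ± 0.18 SE in KMS11 (adjusted p = 0.00017). FKBP5, another classical target, fell by 1.09 in H929 on the log2 scale (adjusted p = 5.1e-05) and was at −0.19 ± 0.10 SE in KMS11 (adjusted p = 0.31). DUSP1 rose in KMS11, by 0.85 ± 0.18 SE (adjusted p = 0.037), and the receptor gene NR3C1 in H929, by 0.77 ± 0.11 SE (adjusted p = 0.00044). Across the lines only TSC22D3 was called, 1 of 5, where 6.5% of all genes rose. Within H929 2 rose and 1 fell (22.7% and 19.3% of all genes), and within KMS11 2 rose and 0 fell (2.58% and 0.533%). The part of glucocorticoid signalling in the KLF9 rise was not tested.

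KLF10 and KLF11 are TGF-beta-induced genes, and of 12 listed genes of that pathway 11 were tested. Across the lines and within KMS11, 0 were called, where 10.4% and 3.12% of all genes were, and within H929 7 rose and 1 fell (22.7% and 19.3% of all genes). The receptor gene TGFBR1 rose in H929 by 0.90 ± 0.12 SE (adjusted p = 0.00025), SMAD2 by 0.52 ± 0.10 SE (adjusted p = 0.0023) and SKI by 0.54 ± 0.15 SE (adjusted p = 0.016), and the inhibitory SMAD6 fell by 2.81 (adjusted p = 0.00078). KLF11 rose in both lines, and KLF10 passed the test in neither.

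**Figure D5:**
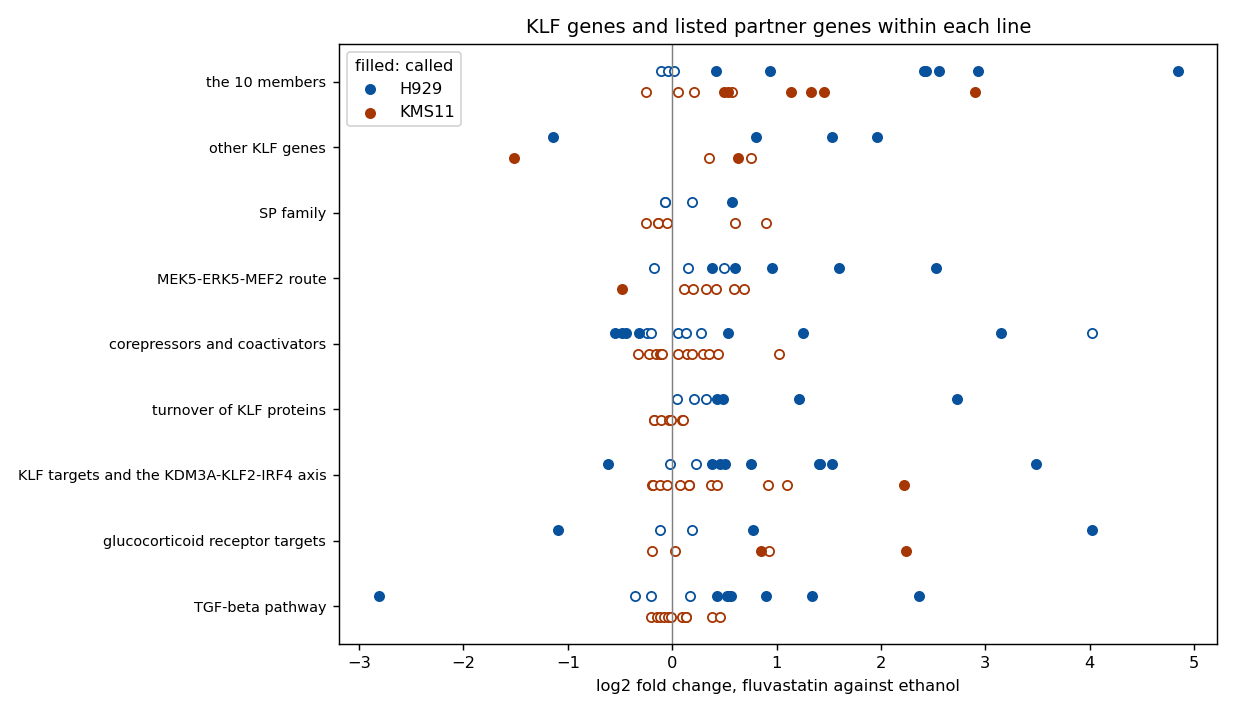
Log2 fold change, fluvastatin against ethanol, of the 10 KLF members and of the tested genes of each list, in H929 (blue) and KMS11 (brown). Filled points have an adjusted p under 0.05, and 4 points of genes with no counts in that line or no usable error are left out. In KMS11, 8 of the 12 filled points belong to KLF genes, KLF15 among them as a fall, where 3.12% of all genes were called. The lists were chosen with earlier results known, so this count is only a description.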

How the data were processed

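Total RNA, depleted of ribosomal RNA, was sequenced with paired ends from a stranded kit in 8 libraries. The authors aligned reads with STAR 2.5.2b to GRCh38 (GENCODE 26) and deposited, per gene and library, RSEM 1.3.0 expected counts, TPM, FPKM (not used here) and effective lengths. The strand setting of the counting is not given in the sources used here. Expected counts were rounded and tested with edgeR 4.0.16 (quasi-likelihood, TMM, filterByExpr at 10 counts and 15 in total) over 13129 protein-coding genes of GENCODE 44, with Benjamini-Hochberg adjustment over all of them and a threshold of 0.05. The comparison across lines had terms for line and treatment. The others were contrasts of 4 group means. CPM were TMM-scaled. Replicates differed beyond counting error in all 4 groups, most in KMS11 in fluvastatin (chi-square per degree of freedom 47.8, against 10.2 to 17.7 in the others). P-values rest on 2 biological replicates per group. Alternatives were DESeq2 1.42.0, limma 3.58.1 on log2(TPM + 1) and log2(TPM + 0.1), other scalings and filters, removal of GC trends, a replicate block and leaving out each library. The fits were tested on simulated data.

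Members, partner lists and motifs were chosen with earlier results of these data known. The text names all members, the other KLF genes, up to 4 genes per list with the smallest adjusted p across the lines, and 3 genes most like the members with the most positive and most negative change, by Pearson correlation of log2(CPM + 0.5). Exceptions are marked in the text, and SP1 is one. Other called list genes are counted only.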

Additional observations from a re-analysis of the deposited data

Results flagged for a closer look

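The responses of 4 members to fluvastatin differed between the lines by edgeR's test of the difference itself, KMS11 minus H929 on the log2 scale: KLF3 by −2.44, KLF6 by −1.08, KLF7 by −3.39 and KLF9 by −1.90. In all 4 the gene rose in both lines and rose less in KMS11, where its level in ethanol was higher. The ethanol libraries enter both the difference and the ethanol ratio, so these are not separate observations. KLF4, KLF10 and KLF11 were also higher in KMS11 in ethanol (log2 2.65, 0.39 and 1.38), and their differences of response were not called in the main fit. Of all genes tested, 23.2% were called in this comparison.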

How the results depend on the processing

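The number of members called across the lines, 6, was 0 with no term for the line, 3 with a replicate block (adjusted p of 0.14 for KLF3, 0.099 for KLF7 and 0.12 for KLF9), 3 at an adjusted p under 0.01 and 3 to 6 when single libraries were left out. Within KMS11 the count of 6 was 3 on log2(TPM + 1) and 4 to 7 without single libraries, and also without single libraries it was 6 to 7 within H929 (7 with all), 4 to 5 for the difference of responses (4), 8 to 9 for the lines in ethanol (9) and 5 to 7 for the lines in fluvastatin (6). With GC trends removed the difference gave 6 members (4502 of all genes) and the lines in fluvastatin 8 (10506 of all genes). On log2(TPM + 1) the difference gave 6 (2035 of all genes). Within KMS11 the count was 4 on log2(TPM + 0.1) (158 of all genes) and 5 with only the libraries of that line (472 of all genes). With edgeR over all annotated genes the count across the lines was 5 (1376 of all genes), with KLF3 at an adjusted p of 0.051. The block also called the KLF13 difference, at −0.37 (adjusted p = 0.043). The order by TPM changed only where neighbours traded places. In the second library of H929 in ethanol KLF11 (1.33 TPM) stood above KLF16 (1.24 TPM). In that of KMS11 in ethanol KLF16 (1.06 TPM) stood above KLF7 (1.05 TPM). Of 1100 values of single members recomputed under the alternatives, 989 kept their direction and their side of the threshold, 57 lost and 22 gained a call, and 32 turned direction. With GC trends removed, KLF16 turned to −0.04 across the lines, 0.24 in H929, −0.33 in KMS11, −0.57 for the difference and 1.12 between the lines in ethanol, KLF13 to −0.18 in KMS11 and KLF2 to −0.32 for the difference. On TPM with pseudocounts of 1 and 0.1, KLF13 in KMS11 turned to −0.26 in both, the KLF2 difference to −1.47 and −0.56, and the ratios between the lines in fluvastatin to 0.10 and 0.11 for KLF3, 0.26 and 0.34 for KLF7, and 0.33 and 0.34 for KLF13. The KLF4 change in H929 was −0.03 over all annotated genes and −0.19 to 0.22 without single libraries. Without single libraries, KLF13 in KMS11 ran from −0.10 to 0.15, and KLF16 ran from −0.04 to 0.35 across the lines, from −0.23 to 0.0099 in H929 and from −0.43 to 0.39 between the lines in fluvastatin. That last ratio was −0.02 with DESeq2 and with median-of-ratios scaling and −0.0032 with a minimum count of 50. The causes were not tested.

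Over all genes, calls across the lines went from 1370 to 2556 with DESeq2, 3263 with GC trends removed, 4 with no term for the line and 158 with the replicate block, and to 191 to 1697 without single libraries. In KMS11 they went from 409 to 926 with DESeq2, 1098 with no filter, 1746 with GC trends removed, 223 and 158 on TPM with pseudocounts of 1 and 0.1, 1637 with the block, and 63 to 2148 without single libraries. For the difference they went from 3048 to 1969 on log2(TPM + 0.1) and 1309 to 4269 without single libraries. The labels give the replicates only numbers. Same-numbered libraries deviated together in H929 (correlation 0.629 over 11015 genes) and hardly in KMS11 (0.0131), so the numbers were not taken as pairs. With 2 libraries a group, KLF2 in KMS11 and KLF4 and KLF7 in H929 in ethanol rest on few counts, which limits their folds.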
